A study of Mus musculus with 4 samples.

Results

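Mitochondrial ribosomal protein genes were read in RNA of double-negative regulatory T cells (DNT) of the mouse, which have the αβ form of the T cell receptor but lack both coreceptors, CD4 and CD8. They were taken as the protein-coding rows whose GENCODE vM21 symbol is Mrpl or Mrps followed by a number. This gave 77 of the 35275 genes of the table, 48 with a large subunit symbol (Mrpl) and 29 with a small subunit symbol (Mrps). RNA sequencing covered 2 libraries of wild-type C57BL/6 cells and 2 of cells from OX40-knockout mice, also labelled C57BL/6, which lack the costimulatory receptor encoded by Tnfrsf4. In both groups the DNT were made in culture by conversion of naive CD4 T cells, with sorting as CD3+ TCRαβ+ cells without NK, CD4 or CD8 staining. The labels give no age, treatment or time, do not say which part of Tnfrsf4 was removed, and leave unstated whether replicate libraries had separate animals or cultures behind them. The p-values thus rest on the spread of these 4 libraries alone, and that spread may be technical. In bulk RNA, fewer cells of a type and less RNA per cell cannot be told apart.

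Mitochondria keep their own ribosome, which translates the few messages of the mitochondrial genome, all of them for subunits of the respiratory chain and ATP synthase. Its RNAs come from the mitochondrial genome. All of its proteins are encoded in the nucleus, made on cytosolic ribosomes and imported. The large subunit joins amino acids and holds the exit tunnel, and the small subunit decodes the message. Many of the proteins descend from the bacterial ribosome, and others are found only in mitochondria. Activated T cells expand their mitochondria as they start to divide, and mitochondrial translation is known to be needed for the function of effector T cells.

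Promoters of 4 members are shown because the factors best known for nuclear genes of mitochondria bind short motifs close to the start of transcription. The windows run from 250 bases before to 50 bases after the start and come from RefSeq on GRCm38.p6. They are those of the highest Mrpl gene (Mrpl30), the highest Mrps gene (Mrps16), the Mrpl gene with the widest range between libraries (Mrpl32), and Mrps30, named for the small subunit but placed in the large one. Capitals mark matches to 3 motifs on either strand: for NRF1, GCGCA, any base, then GCGC; for ETS factors such as GABPA, CCGGAAG; and for YY1, AA, any base, then ATGGCGGC.
Mrpl30, chr1:37890227-37890526, strand +: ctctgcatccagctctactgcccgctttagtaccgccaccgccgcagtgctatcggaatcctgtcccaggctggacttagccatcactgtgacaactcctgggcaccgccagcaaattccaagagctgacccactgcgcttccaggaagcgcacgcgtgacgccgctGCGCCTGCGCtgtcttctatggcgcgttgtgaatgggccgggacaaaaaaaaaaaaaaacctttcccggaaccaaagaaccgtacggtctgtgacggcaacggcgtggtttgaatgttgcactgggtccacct
Mrpl32, chr13:14612988-14613287, strand -: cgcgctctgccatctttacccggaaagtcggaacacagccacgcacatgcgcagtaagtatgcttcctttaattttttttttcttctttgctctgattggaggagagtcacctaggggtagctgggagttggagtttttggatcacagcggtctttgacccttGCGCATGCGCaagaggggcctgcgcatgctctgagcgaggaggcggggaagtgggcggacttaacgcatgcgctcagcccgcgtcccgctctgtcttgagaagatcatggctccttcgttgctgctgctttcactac
Mrps16, chr14:20393441-20393740, strand -: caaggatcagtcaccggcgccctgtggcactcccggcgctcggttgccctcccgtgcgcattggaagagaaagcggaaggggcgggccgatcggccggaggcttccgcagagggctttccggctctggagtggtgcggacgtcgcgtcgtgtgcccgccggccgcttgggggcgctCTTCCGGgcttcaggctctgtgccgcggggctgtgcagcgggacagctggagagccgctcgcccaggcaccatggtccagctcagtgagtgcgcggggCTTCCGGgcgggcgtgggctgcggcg
Mrps30, chr13:118387203-118387502, strand -: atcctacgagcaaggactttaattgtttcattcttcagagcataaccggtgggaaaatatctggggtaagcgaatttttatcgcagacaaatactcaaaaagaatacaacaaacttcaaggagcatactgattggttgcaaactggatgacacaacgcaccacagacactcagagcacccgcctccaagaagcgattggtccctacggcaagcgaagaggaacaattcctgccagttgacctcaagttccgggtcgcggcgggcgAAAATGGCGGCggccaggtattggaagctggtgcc

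Windows were found for 68 of the 77 members. The ETS motif was matched in 25 of the 68 genes (36.8%), against 21.9% of the 8805 tested genes with a window and 9.93% of all 27025 genes with one. NRF1 was matched in 13 members (19.1%), against 12.3% and 5.19%. YY1 was matched in 7 members (10.3%), against 3.11% and 1.17%. TATAAA, the core of the TATA box, was found in 5 members (7.35%), against 8.13% of tested and 15.7% of all genes. Among Mrpl genes the ETS share was 33.3% and the NRF1 share 23.8%, and among Mrps genes 42.3% and 11.5%. No difference between these shares was tested, and a match is a description of letters, not of binding. Each printed window held matches to only 1 of the 3 motifs. Mrps16 has a second window in the table, chr14:20393585-20393884, with no match to any motif, and the one with matches is shown. The NRF1 match began at -83 from the start in Mrpl30 and at -87 in Mrpl32, and the YY1 match of Mrps30 began at 15, inside the transcribed part.

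**Figure D1:**
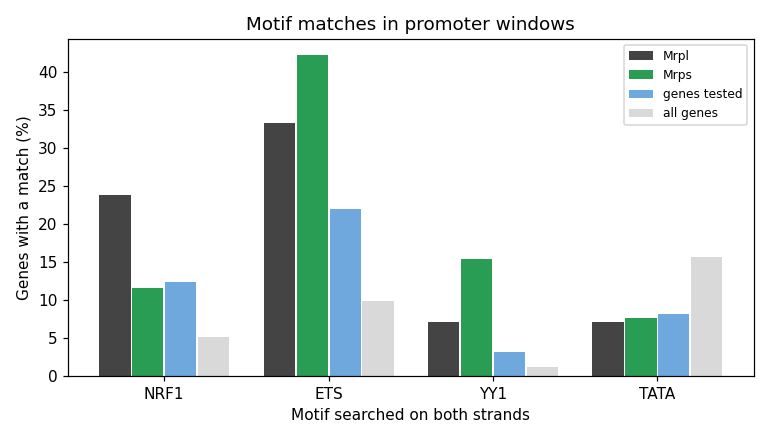
Share of genes in percent (vertical axis, from 0) with at least 1 match to each motif (horizontal axis) in the promoter window, for Mrpl genes (n = 42), Mrps genes (n = 26), genes tested (n = 8805) and all genes with a window (n = 27025). The ETS bars of both subunits, at 33.3% and 42.3%, stand above those of the genes tested, at 21.9%, and the TATA bars of the members stand below that of all genes.

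Library totals lay between 22220888 and 24395743 reads. The αβ T cell markers were present, with Cd3e between 248 and 332 RPKM (reads scaled to transcript length and library depth), and all 4 of the B and plasma cell markers lay under 1 RPKM in every library. Tnfrsf4 itself stood at 18.2 and 12.3 RPKM for wild-type against 12.1 and 9.38 RPKM for knockout, which limma did not call (adjusted p = 0.975), so these values check the labels little. The markers of other cells differed between libraries, mostly in OX40-knockout 1. Its Cd4 level was 10.1 RPKM, against 0.82 to 2.06 RPKM elsewhere, and all 3 of the CD4 and CD8 genes were highest in it, with Cd8a at 16.6 RPKM against 9.03 to 10.5 RPKM. All 4 NK markers were lowest in it. All 4 were also lower in wild-type 1 than in wild-type 2, by up to 2.66 in log2(RPKM + 1). In OX40-knockout 1 they summed to 139 RPKM, against 244 to 359 RPKM elsewhere, with Ncr1 near 0 at 0.183 RPKM. The 6 myeloid markers summed to 2.94 RPKM there and to 3.90 to 9.63 RPKM elsewhere, with Flt3 at or near 0 in every library. The sum of the 4 stromal, epithelial and endothelial markers, mostly Pecam1, was highest in OX40-knockout 2. It was 130.3 RPKM there, against 47.2 to 94.5 RPKM elsewhere, with Pdgfra at 0 throughout. The 4 erythroid and platelet markers summed to 4.01 RPKM in wild-type 1 and to 7.37 to 9.71 RPKM elsewhere. The part of these differences in the results below was not tested.

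Of the 77 members, 76 were read in all 4 libraries and lay above the filter of a mean of 1 RPKM. Their mean levels ran from 5.72 RPKM for Mrpl47 to 110.3 RPKM for Mrpl30, a 19.3-fold range, with a median of 27.7 RPKM. The median over all 11625 genes tested was 15.8 RPKM, and the median member stood above 65.0% of them. Most members lay close together, since the upper quartile, 41.0 RPKM, was 2.35 times the lower, 17.5 RPKM. On the same scale the median of 79 nuclear genes of the respiratory chain and ATP synthase was 94.5 RPKM, and that of 80 cytosolic ribosomal protein genes was 1139 RPKM.

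The large subunit was led by Mrpl30, which has a bacterial counterpart and stood at 107.6 and 107.0 RPKM for wild-type against 107.6 and 119 RPKM for knockout. Mrpl52, a protein found only in mitochondrial ribosomes, followed at 76.2 and 86.4 against 77.2 and 106 RPKM. OX40-knockout 2 was above the other libraries in both. Mrpl18, Mrpl20 and Mrpl42 came next, with means of 65.7, 63.4 and 58.2 RPKM. At the lower end were Mrpl47, which corresponds to bacterial L29, at 6.16 and 6.11 against 4.21 and 6.38 RPKM, and Mrpl1 at 6.39 and 6.93 against 5.31 and 6.54 RPKM. In both of these OX40-knockout 1 was the low library. Mrpl35, Mrpl11 and Mrpl50 were also low, with means of 6.31, 8.87 and 11.6 RPKM.

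In the small subunit Mrps16, the counterpart of bacterial S16, was highest at 102 and 100.3 RPKM for wild-type against 92.0 and 101 RPKM for knockout. Mrps21 stood at 86.1 and 91.9 against 75.4 and 91.3 RPKM. OX40-knockout 1 was again the lowest library in both. Mrps23, Mrps18c and Mrps15 had means of 70.3, 66.7 and 56.7 RPKM. The lowest were Mrps22, at 6.42 and 6.17 against 6.23 and 8.01 RPKM, and Mrps27, a protein of the pentatricopeptide repeat family, at 8.27 and 8.07 against 6.67 and 9.09 RPKM. Mrps31, Mrps2 and Mrps30 had means of 10.03, 10.4 and 10.8 RPKM.

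**Figure D2:**
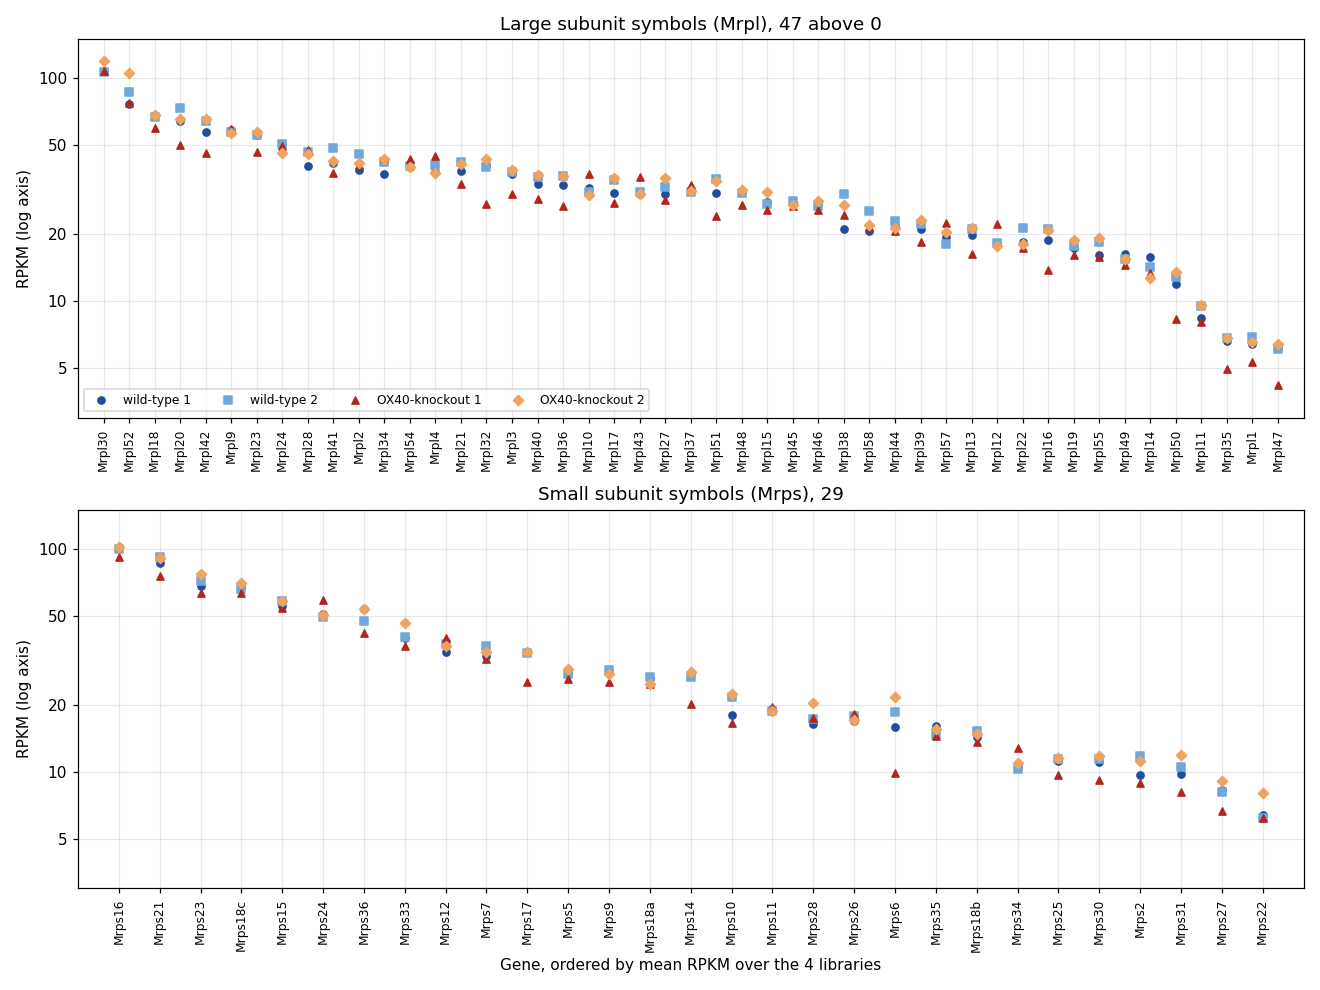
RPKM on a log axis (vertical) of the 76 members above 0, 1 point per library, with genes ordered by their mean (horizontal) and the large subunit symbols in the upper panel. Levels run from 110.3 to 5.72 RPKM in the upper panel and from 98.8 to 6.71 RPKM in the lower, and in most genes the triangle of OX40-knockout 1 is the lowest point.

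Large and small subunit genes had like levels. Over all 48 and 29 genes, Mrpl53 at 0 included, the median Mrpl gene had 30.4, 30.8, 26.9 and 30.9 RPKM in the order wild-type 1, wild-type 2, OX40-knockout 1, OX40-knockout 2, and the median Mrps gene at 26.3, 26.6, 20.1 and 24.8 RPKM. The ratio of the medians was 1.16, 1.16, 1.34 and 1.25 in the same order. As a mean of log2(RPKM + 1) turned back to RPKM, the subunits stood at 28.0 and 24.5 RPKM over the libraries, a ratio of 1.14, for the 47 and 29 genes above 0. With Mrpl53 entered at 0, a value that may be a failed estimate, the ratio was 1.06. Summed over members, Mrpl genes held between 1.67 and 1.74 times the RPKM of Mrps genes, a ratio set partly by their number, 48 against 29. The spread within a subunit was wider than the gap between subunits. Quartiles of the mean level were 19.3 and 41.2 RPKM for Mrpl genes and 14.4 and 40.7 RPKM for Mrps genes.

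**Figure D3:**
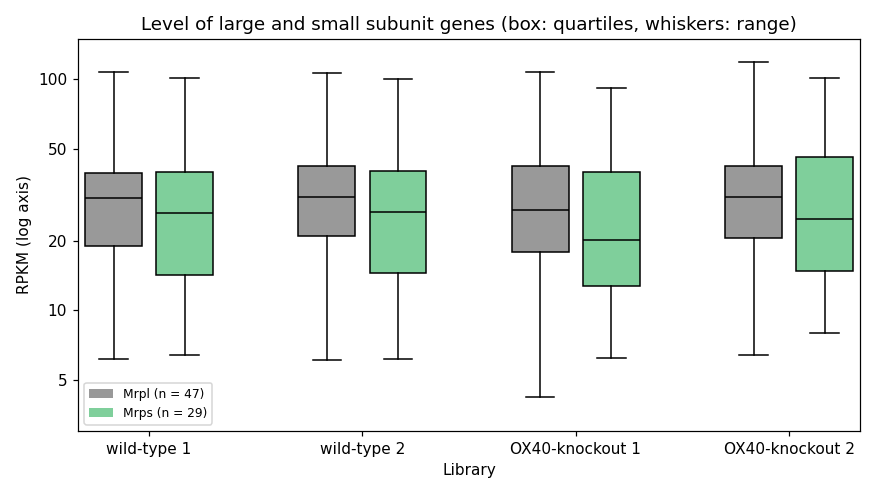
RPKM on a log axis (vertical) of the Mrpl genes (n = 47, grey) and Mrps genes (n = 29, green) in each library (horizontal). Boxes span the quartiles with the median as a line, whiskers span the range, and the boxes of both subunits overlap over most of their height in every library.

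The symbols do not always give the place of the protein. Mrps30 and Mrps18a sit in the large subunit, and the product of Mrps36 is now known as a part of the 2-oxoglutarate dehydrogenase complex. With these moved, the ratio of the medians was 1.28 over the libraries against 1.22 by symbol. Mrps30 stood at 11 and 11.4 RPKM for wild-type against 9.17 and 11.8 RPKM for knockout. Mrps36 was higher, at 53.8 and 47.3 against 41.8 and 53.9 RPKM. The groups overlapped in both. Mammals have 3 versions of bacterial S18, and their levels differed, with Mrps18c at 66.7 RPKM, Mrps18a at 25.7 RPKM and Mrps18b at 14.4 RPKM on average. The order of the 3 was the same in every library. The lowest Mrps18c value, 63.1 RPKM, was above the highest Mrps18a value, 26.7 RPKM, and the lowest Mrps18a value, 24.8 RPKM, was above the highest Mrps18b value, 15.2 RPKM.

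Members with a bacterial counterpart had a median of 32.3 RPKM (44 genes), and those found only in mitochondrial ribosomes one of 22.4 RPKM (29 genes above 0). Mrps18a and Mrps18b, though versions of S18, and Mrps36 were placed in neither set. The 2 sets overlapped widely, with quartiles of 18.9 and 46.1 RPKM against 15.2 and 31.8 RPKM.

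Among members with known places, Mrpl12, the counterpart of the bacterial stalk protein L7/L12, stood at 18.0 and 18.2 RPKM for wild-type against 22.2 and 17.6 RPKM for knockout. Mrpl10, which anchors the stalk, was at 32.0 and 31.0 against 37.0 and 29.8 RPKM. In both, OX40-knockout 1 was the highest library and OX40-knockout 2 the lowest. Mrpl11, at the stalk base, was lower than either, at 8.38 and 9.46 against 8.09 and 9.55 RPKM. Around the exit tunnel, Mrpl23 stood at 55.7 and 55.5 against 46.8 and 57.0 RPKM. Mrpl24 was at 50.8 and 50.7 against 49.6 and 46.3 RPKM. Mrpl45, which docks the ribosome to the inner membrane, had one of the narrowest ranges, at 27.6 and 28.0 against 26.7 and 26.8 RPKM. Mrpl58, a peptidyl-tRNA hydrolase built into the large subunit that frees stalled ribosomes, was at 20.6 and 25.4 against 21.4 and 22 RPKM. Mrps12, a protein of the decoding centre, stood at 34.5 and 37.3 against 39.8 and 36.5 RPKM, and Mrpl41, found only in mitochondrial ribosomes, at 41.5 and 48.4 against 37.4 and 42.4 RPKM. Apart from Mrpl24 and Mrpl45, the groups overlapped in each of these.

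Mrpl53 was listed at 0 in all 4 libraries. It shares 88.0% of its exon bases in vM21 with other genes, among them the antisense gene Ccdc142os on the opposite strand, at 0.137 to 0.744 RPKM, and the gene model Gm42688 on the same strand, at 1.84 to 2.90 RPKM. The treatment of shared bases in the authors' counting was not given, and an exact 0 may be a failed estimate. Exon bases were shared with another gene in 32 members, and over 10% of them in 18. Mrps34 shared 77.8% with the 2 genes Mapk8ip3 and Nme3, of which Nme3 was also listed at 0 in every library and Mapk8ip3 lay between 47.2 and 68.2 RPKM. Mrps25 shared 69.8% with Nr2c2 on the opposite strand. The levels of these members are therefore uncertain.

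The level of a member also depends on the length its reads were divided by. For 41 of the 76 members, whole reads were recovered at a length within 1 base of the mean of all annotated vM21 transcripts of the gene. Their reads ran from 161 to 1864 per library with a median of 647.5, so counting error alone was 3.93% at the median and 7.88% at the lowest count. For the other 35, reads were found only up to a common factor and are not given. Mrps22 held 335, 338, 311 and 406 reads, divided by 2247 bases, where the transcript with its longest coding sequence has 1197 bases. Per that length its mean was 12.6 and not 6.71 on the RPKM scale. Mrps5 went the other way, from 27.5 to 9.26, as its longest-coding transcript has 4481 bases against the 1508 used. Over the 41 members both scales ranked the genes alike, with a Spearman correlation of 0.83 across genes, which share their reads and are not replicates. Ratios of RPKM between libraries within a gene do not depend on the length, where all libraries share it. Differences of log2(RPKM + 1) do, through the added 1.

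Knockout and wild-type libraries were set against each other to ask whether any member differed with the OX40 genotype. No member passed the test. With limma, 0 of 76 members had an adjusted p under 0.05, where 0% of the 11625 genes tested passed, and 0 members had an unadjusted p under 0.05, where 1.39% of genes did (162 genes). With a library left out, 1 library remains in its group and the spread comes from the other group alone, so those tests are not given. The median log2 difference of the members was -0.13 without OX40-knockout 2 and 0.04 without OX40-knockout 1. The differences on the log2(RPKM + 1) scale were small, from -0.25 for Mrpl20 to 0.18 for Mrpl57, with a median of -0.06 against -0.03 for all genes tested. The 95% intervals had a median width of 0.70 on that scale and lay within 1 in either direction for 75 of the 76. The exception was Mrps6, with an interval from -1.17 to 0.74. 

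**Figure D4:**
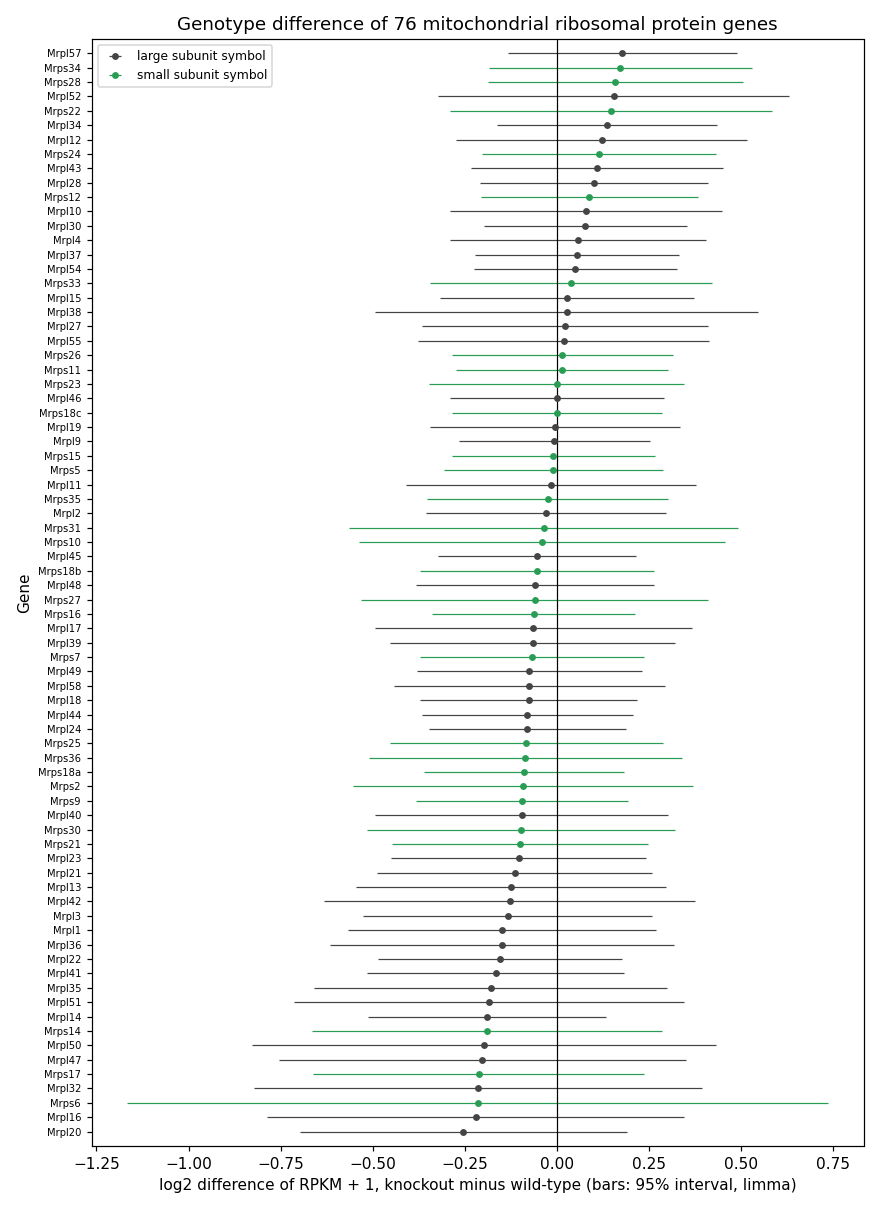
Difference of log2(RPKM + 1), knockout minus wild-type (horizontal axis), for the 76 members ordered by size (vertical axis), with points for the limma estimate and bars for its 95% interval (n = 2 libraries per group). Points run from -0.25 to 0.18, every interval spans 0, and large (grey) and small (green) subunit symbols are mixed along the order.

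Of the 76 members, 53 were lower and 23 higher on average in the knockout, where 56.6% of all genes tested were lower and 43.4% higher. The count of higher members was 33 with TMM-type or median-of-ratios factors (43.4%), where 50.1% and 50.4% of all genes were higher. The groups did not overlap for 8 members that were lower, where 17.8% of all genes were so, and for 5 that were higher, where 8.66% were. As shares of the members these counts are 10.5% and 6.58%, both under the background of that scaling. With TMM-type factors 6 members were apart and lower (7.89%, against 13% of all genes) and 10 apart and higher (13.2%, against 12.2%). By subunit, 15 of 47 Mrpl genes and 8 of 29 Mrps genes were higher on average, with medians of -0.07 and -0.04.

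Members whose groups did not overlap differed little. Mrpl14 stood at 15.7 and 14.2 RPKM for wild-type against 13.3 and 12.7 RPKM for knockout, or 15.0 ± 1.05 against 12.99 ± 0.425 RPKM (mean ± SD, n = 2 each). Its reads were 205, 195, 166 and 161, and the log2 difference was -0.19 with a standard error of 0.12 (limma adjusted p = 0.975). It was -0.32 with the GC correction and -0.12 without wild-type 1. Mrpl22, which lines the exit tunnel, was at 18.4 and 21.2 against 17.3 and 18.0 RPKM. The value of wild-type 1 lay closer to both knockout libraries than to wild-type 2, and the log2 difference of -0.15 was -0.06 without wild-type 2 and -0.25 without wild-type 1. Mrps18a was at 26.3 and 26.7 against 24.8 and 24.8 RPKM, Mrps9 at 27.9 and 28.5 against 25.2 and 27.5 RPKM. Mrpl44, which carries a fold of the RNase III family, was at 21.6 and 22.7 against 20.6 and 21.3 RPKM. The log2 differences of Mrps18a, Mrps9 and Mrpl44 were -0.09, -0.10 and -0.08. With the GC correction that of Mrps18a was -0.14 and that of Mrps9 was -0.01. The difference of Mrps9 was -0.03 without OX40-knockout 1 and -0.16 without OX40-knockout 2, and that of Mrpl44 was -0.04 without wild-type 2. With TMM-type factors those of Mrps18a and Mrpl44 were -0.06 and -0.05. Mrpl44 shares 7.66% of its exon bases with Wdfy1 on the opposite strand, and Wdfy1 stood at 46.4 and 42.7 against 16.2 and 15.9 RPKM.

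In the other direction, Mrpl57 was at 19.4 and 18.1 RPKM for wild-type against 22.3 and 20.3 RPKM for knockout, a log2 difference of 0.18 with a standard error of 0.12 (limma adjusted p = 0.975). Mrps34 was at 10.5 and 10.3 against 12.8 and 11 RPKM, and Mrps28 at 16.3 and 17.3 against 17.4 and 20.4 RPKM. The log2 difference of Mrps34, 0.17, was 0.02 with the GC correction, 0.07 without OX40-knockout 1 and 0.28 without OX40-knockout 2. Mapk8ip3, which shares its exon bases, was also highest in OX40-knockout 1, at 68.2 RPKM against 47.2 to 53.5 RPKM. That of Mrps28, 0.16, was 0.05 without OX40-knockout 2 and 0.27 without OX40-knockout 1. For Mrps28 the gap between wild-type 2 and OX40-knockout 1 was that of 330 reads and 303 reads in libraries of unlike depth. Mrpl34 stood at 37.1 and 42.2 against 43.6 and 43.5 RPKM, and its log2 difference of 0.14 was 0.02 with the GC correction, 0.05 without wild-type 1 and 0.23 without wild-type 2. That of Mrpl57 was 0.11 without OX40-knockout 1. Mrpl30 was also apart and higher, but only by 107.638 RPKM in OX40-knockout 1 over 107.616 RPKM in wild-type 1. Its log2 difference of 0.08 was 0.005 without OX40-knockout 2. Limma called none of these differences (adjusted p = 0.975).

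The 2 knockout libraries differed more than the genotypes did. Over the members the median absolute log2 difference between replicates was 0.24 in the knockout and 0.07 in the wild-type. All genes tested had 0.25 and 0.10, so this spread was not particular to the members. The genotype differences, which are signed, ran from -0.25 to 0.18 in the members, with a median of -0.06. OX40-knockout 1 was the lowest of the 4 libraries in 51 of the 76 members (67.1%), where it was lowest in 42.6% of all genes tested. OX40-knockout 2 was the highest in 35 (46.1%), where it was highest in 19.4% of genes. The knockout libraries therefore lay on either side of the wild-type ones in many members. The median deviation from the mean of the 4 libraries was -0.01, 0.05, -0.11 and 0.08 in the same library order, where all genes had 0.00, 0.03, -0.02 and -0.01. By replicate number, OX40-knockout 1 was below wild-type 1 in 55 members, with a median log2 difference of -0.10, where 51.9% of all genes were lower. OX40-knockout 2 was above wild-type 2 in 43 members, with a median of 0.02, where 37.9% of genes were higher. Without OX40-knockout 1, the median difference of the members was 0.04 and 54 were higher on average (71.1%), where 41.1% of genes were.

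Members with the widest range between libraries had the same low library. Mrps6, the counterpart of bacterial S6, was the only one over 2-fold, at 15.9 and 18.6 RPKM for wild-type against 9.88 and 21.6 RPKM for knockout. It shares 19.9% of its exon bases with Slc5a3, an inositol transporter on the same strand, which was at 3.01 and 3.797 against 2.44 and 4.02 RPKM. Mrpl32, a protein matured by a protease of the inner membrane, was at 40.6 and 39.8 against 27.3 and 43.4 RPKM, and Mrpl50 at 11.9 and 12.9 against 8.32 and 13.5 RPKM. Mrpl16, Mrpl20 and Mrpl51 had the next widest ranges. Mrpl16 stood at 18.8 and 21.1 against 13.8 and 20.8 RPKM, Mrpl20 at 64.3 and 73.3 against 49.99 and 65.9 RPKM, and Mrpl51 at 30.5 and 35.3 against 24.0 and 34.4 RPKM. OX40-knockout 1 was the lowest library in all 6. The median range over members was 0.28 on the log2 scale, against 0.34 over all genes.

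The deviation of OX40-knockout 1 moved with the GC content of the transcripts. In the 19 members lowest in GC content, up to 47.6%, its median deviation was -0.22 and it was the lowest library in 18. In the 19 highest, from 54.6%, the median was 0.05 and it was the lowest library in 4 and the highest in 10. The members between had medians of -0.16 and -0.08. Over the 76 members Pearson's r between GC content and the deviation was 0.60 in OX40-knockout 1, -0.50 in wild-type 1, -0.17 in wild-type 2 and -0.48 in OX40-knockout 2. These points share their libraries, and the deviations of a gene sum to 0, so the 4 values are not independent. With each library's trend on GC content removed, OX40-knockout 1 was the lowest library in 59 of the 76 members (77.6%), where 38.8% of all genes were so, and its median deviation was -0.14 against -0.01 for all genes. Large and small subunit genes did so alike, with medians of -0.16 and -0.12.

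**Figure D5:**
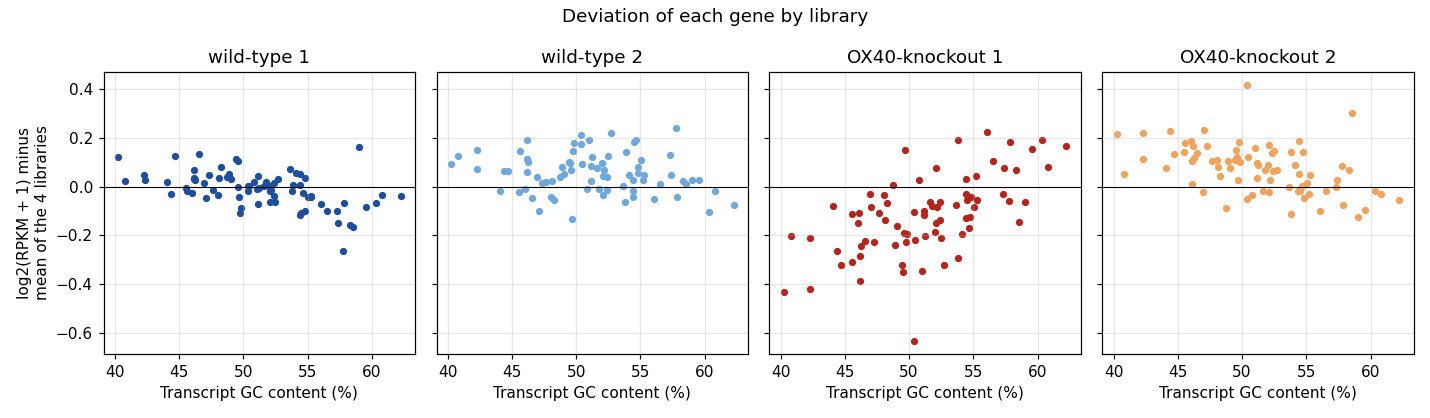
Deviation of log2(RPKM + 1) from the gene's mean over the 4 libraries (vertical axis) against the mean GC content of its transcripts in percent (horizontal axis) for the 76 members, 1 panel per library. The points of OX40-knockout 1 climb from left to right (r = 0.60) and lie mostly below 0, and those of wild-type 1 and OX40-knockout 2 decline.

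The other genes of mitochondrial translation were set beside the members by list. Assembly factors had a median of 13.7 RPKM, translation factors 14.3 RPKM, tRNA synthetases 7.86 RPKM and genes of mitochondrial DNA expression 19.99 RPKM, against 27.7 RPKM for the members. Another 5 proteins of the mitochondrial ribosome carry other symbols. Of them Aurkaip1 stood at 90.6 and 98.2 RPKM for wild-type against 83.9 and 81.5 RPKM for knockout, and Dap3 at 40.3 and 43.3 against 43.1 and 36.5 RPKM. Of 22 assembly factors, 14 translation factors, 20 tRNA synthetases and amidotransferase subunits, and 12 genes of mitochondrial DNA expression, 0 passed limma in either direction and 0 had an unadjusted p under 0.05. On average 7, 4, 5 and 3 of them were higher in the knockout. Tufm, the elongation factor that brings tRNA to the ribosome, was the highest translation factor, at 42.8 and 46.1 against 45.1 and 46.5 RPKM. Mtif3, an initiation factor, had the lowest p of these lists (limma adjusted p = 0.975), at 5.62 and 5.39 against 3.91 and 4.30 RPKM. Lrpprc, which stabilises mitochondrial messages, was at 45.9 and 47.8 against 35.04 and 45.6 RPKM. The median deviation in OX40-knockout 1 was -0.13, -0.17, -0.14 and -0.13 in the same 4 lists, -0.15 in the nuclear respiratory chain genes and -0.22 in the cytosolic ribosomal protein genes. It was -0.07 in the 5 ribosome proteins with other symbols, where OX40-knockout 1 was lowest in 2 and the median of OX40-knockout 2 was -0.03. In the 8 biogenesis regulators tested it was 0.09, with OX40-knockout 1 highest in 5. Whether the members' value of -0.11 differs from any of these was not tested.

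The factors whose motifs were searched were read in all libraries. Nrf1 stood at 28.7 and 26.4 RPKM for wild-type against 29.6 and 26.5 RPKM for knockout. Gabpa, the DNA-binding subunit of NRF2, was at 49.3 and 47.4 against 34.8 and 47.1 RPKM, and Yy1 at 90.03 and 85.1 against 94.8 and 85.0 RPKM. Myc, which drives growth genes in dividing T cells, was at 76.4 and 65.0 against 99.5 and 65.6 RPKM. Of the coactivators, Ppargc1a was at most 0.017 RPKM, and Pprc1 was at 40.6 and 40.6 against 37.5 and 39.7 RPKM. OX40-knockout 1 was the lowest library for Gabpa and Pprc1 and the highest for Myc, Nrf1 and Yy1. Of the messages that the mitochondrial ribosome translates, mt-Co1, a core subunit of cytochrome oxidase, stood at 3991 and 4280 against 3327 and 4305 RPKM. mt-Nd1, a subunit of complex I, was at 1384 and 1480 against 975.01 and 1536 RPKM. Both were lowest in OX40-knockout 1, and neither genotype difference passed limma. Over the 12 mitochondrial genome genes tested, the median deviation in OX40-knockout 1 was -0.41, and -0.16 with the GC correction. It was the lowest library in 10 of them and the highest in 2. With limma 0 had an adjusted p under 0.05 and 1 an unadjusted p under 0.05.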

How the data were processed

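The authors deposited 1 table with 4 columns of RPKM values, the unit being settled from the values, as the header names none. Per the submitters' processing notes, Bowtie 0.12.2 and build mm8 were named, without their roles. Annotation, counting tool and strand are unstated in the sources used here. Symbols, types, lengths and GC content came from GENCODE vM21 (GRCm38), which names 34490 of the 35275 IDs, and promoter windows from RefSeq on GRCm38.p6, so the build of the names differs from the one in the notes, and gene coordinates are left out. Library totals were the whole numbers that the values of 1 read gave in single-transcript genes. With them 82.6% to 83.2% of such genes, by library, held whole reads within 0.02. Being whole within 0.0002 in all 4 libraries was the rule for recovered reads, not an outcome. Reads were kept for the 41 members that met it within 1 base of the mean transcript length. 5 pseudogene rows with like symbols, at most 0.817 RPKM, were left out, and Mrpl33 was not analysed here.

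The tests used limma 3.58.1 under R 4.3.3, on log2(RPKM + 1) with a trended prior, for the 11625 genes averaging 1 RPKM or more. All 4 libraries entered without a block, with Benjamini-Hochberg adjustment over all genes at 0.05. The fit was run on simulated data with the same SD of 0.15 for every gene, unlike these libraries, whose knockout pair differed more. There it called 42% of the log2 changes of 0.5 and 100% of those of 1 and 2, with 6 false calls. The alternatives were another pseudocount, no filter, 3 scalings, a GC correction (loess, span 0.5), the replicate block and leaving out each library. Named were the 5 highest and 5 lowest members per subunit, up to 6 of lowest p per direction whose groups did not overlap, the 6 of widest range, and members of fixed roles. Other genes were the 2 highest of a list, those of lowest p, the cell markers and some the results turn on. The members, lists and rules were chosen with earlier results of these data known. Tables were handled in Python 3.11.15 (pandas 2.3.3, numpy 2.4.6) and drawn in matplotlib 3.10.9.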

Additional observations from a re-analysis of the deposited data

How the results depend on the processing

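No member passed the adjusted threshold under any alternative run. Members at an unadjusted p under 0.05 numbered 0 as reported and 0 in each other setting that kept all libraries. With a library left out, 1 library remains in its group and the spread comes from the other group alone. Counts from those fits cannot be set against the others, and member counts at an unadjusted p are not given for them. Among all genes limma called 0 as reported, 1 with quantile normalization, 5 with the replicate block and 6 with the GC correction and the replicate block, and 0 to 1 with a library left out. Genes at an unadjusted p under 0.05 numbered 162, then 603 with no filter, 373 with the replicate block, 495 with that block and the GC correction, and 76 to 3832 with a library left out, the 3832 being without OX40-knockout 2. The labels do not say that equal numbers pair libraries. The difference between replicates 2 and 1 correlated across genes between the groups, at 0.47 over all genes tested and 0.22 over the members. The median log2 difference of the members ran from -0.13 to 0.045 with a library left out and was above 0 only without OX40-knockout 1 (0.045). Members higher on average numbered 23, and 17 to 54 with a library left out, the 54 being without OX40-knockout 1. Members whose groups did not overlap numbered 5 higher and 8 lower. With TMM-type or median-of-ratios factors 10 were higher (13.2%, against 12.2% of all genes) and with quantile normalization 8 (10.5%, against 10.7%). Leaving out a library, which makes overlap rarer by construction, gave 8 to 38 higher and 11 to 54 lower. The 38 higher, without OX40-knockout 1, were 50% of members, against 25.9% of all genes. The 54 lower, without OX40-knockout 2, were 71.1%, against 46.8%. The 8 higher and 11 lower, without wild-type 1 and wild-type 2, were 10.5% and 14.5%, against 17.3% and 26.3%. The ratio of the large to the small subunit, 1.22 by medians, was 1.06 as a mean of log2(RPKM + 1) and 1.02 with a pseudocount of 0.1, both with Mrpl53 at 0. Over the members above 0, added after seeing the data, these were 1.14 and 1.15. The ratio was 1.12 per coding transcript over the members with recovered reads (added after seeing the data), where RPKM also gave 1.12. By library the RPKM ratio of those members ran from 0.95 in wild-type 1 to 1.23 in OX40-knockout 1. Per coding transcript it ran from 1.07 to 1.18. Over all members the ratio of the medians was 1.18 to 1.24 with a library left out. The count of 51 members lowest in OX40-knockout 1 was 47 to 59 under the other scalings and the GC correction, for this count also added after seeing the data. The 95% intervals, of median width 0.70 on the log2 scale, set what 2 libraries a group can show for a member, and counting error, known for the 41 members with recovered reads, was 2.32% to 7.88% per value.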
